A study of Mus musculus with 6 samples.

Results

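The genes described here encode the machinery that sorts membrane proteins at endosomes: the ESCRT complexes, the endosomal Rab GTPases, retromer with its sorting nexins, the tethering complexes HOPS and CORVET, tetraspanins, and the ubiquitin enzymes that mark or spare cargo. They were taken from a list of 52 gene symbols, and the brightest probe set of a gene, by its mean across the 6 arrays, stood for it. Of the 52, 51 were measured among 18029 genes in all, and Cd63 was not analysed here. Livers came from mice with hepatocyte-specific loss of RECS1 (RECS1-HKO, called HKO, n = 3) and from mice with floxed RECS1 alone (RECS1-flox, called control, n = 3). The gene is now called Tmbim1. All 6 mice were of the C57BL/6 background, were 16 weeks of age and had eaten high-fat diet during the last 8 weeks, so the diet was shared by both genotypes. The Cre driver and the sex of the animals are not stated in the labels, and the other cells of the liver are not stated to lack the gene. Because whole liver was measured, fewer cells of a type and less RNA per cell cannot be told apart.

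Receptors that are to be destroyed are tagged with ubiquitin, gathered on the endosome by ESCRT-0, passed on by ESCRT-I and ESCRT-II, and pushed into vesicles inside the endosome by ESCRT-III filaments, which the ATPase VPS4 takes apart again. The resulting multivesicular body fuses with the lysosome, while retromer pulls other cargo back to the Golgi or the cell surface, and Rab GTPases with their tethers give each endosome its identity and its fusion partner. In hepatocytes this traffic handles lipoprotein receptors, growth factor receptors and pattern recognition receptors. Tmbim1 is a membrane protein of the late endosome and lysosome that has been reported to work with the ESCRT-I subunit Tsg101 in sending Toll-like receptor 4 to the lysosome. The comparison asks whether transcripts of the sorting machinery differ between livers with and without hepatocyte Tmbim1.

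The targeted gene was examined first. Tmbim1 had log2 values of 7.19, 7.14 and 7.06 in HKO livers, against 7.62, 7.58 and 7.74 in control livers. All HKO livers lay below all control livers, and the log2 fold change was -0.52 ± 0.08 (SE; adjusted p = 0.026, limma with Benjamini-Hochberg adjustment over all genes). Without any 1 of the 6 arrays the adjusted p lay between 0.065 and 0.0967, and a replicate block gave 0.0828. Array medians lay between 3.92 and 3.95, and arrays of 1 genotype correlated across genes at 0.995 to 0.996, arrays of different genotypes at 0.991 to 0.994.

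Of the 51 measured members, 1 passed in limma at an adjusted p under 0.05. The list had been chosen with earlier results of these data known. Rab30, a Rab GTPase known mainly from the Golgi, rose 2.09-fold in HKO livers, with a 95% interval of 1.79 to 2.44. None of the other 50 measured members passed the test, and their log2 fold changes lay between -0.22 and 0.31. The count of 1 in 51 stands beside 1.01% of all genes past the same threshold (182 of 18029, with 0.56% higher and 0.449% lower in HKO livers), so the share of members called is near that of genes at large. At an unadjusted p under 0.05 there were 6 members, 11.8% of those measured, against 13% of all genes. The median log2 fold change of the members was 0.0058, against -0.0041 for all genes.

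Rab30 had log2 values of 6.01, 5.90 and 6.22 in HKO livers, against 4.94, 4.97 and 5.04 in control livers. Every HKO liver was above every control liver, and the lowest HKO value exceeded the highest control value by 0.86 log2 units. The log2 fold change was 1.06 ± 0.10 (SE; limma adjusted p = 0.00204), which ranked 30th of 18029 genes by p and 68th by rise. It passed in all 6 fits without 1 array, with log2 fold changes from 0.97 to 1.14 and adjusted p-values from 0.00323 to 0.0181. Fold changes given below are log2 values too, unless written in the form 1.41-fold. Rab30 has 1 probe set, so no second probe set of this gene was at hand to set beside it. Mouse studies have described Rab30 as a transcript that fasting raises in liver.

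**Figure D1:**
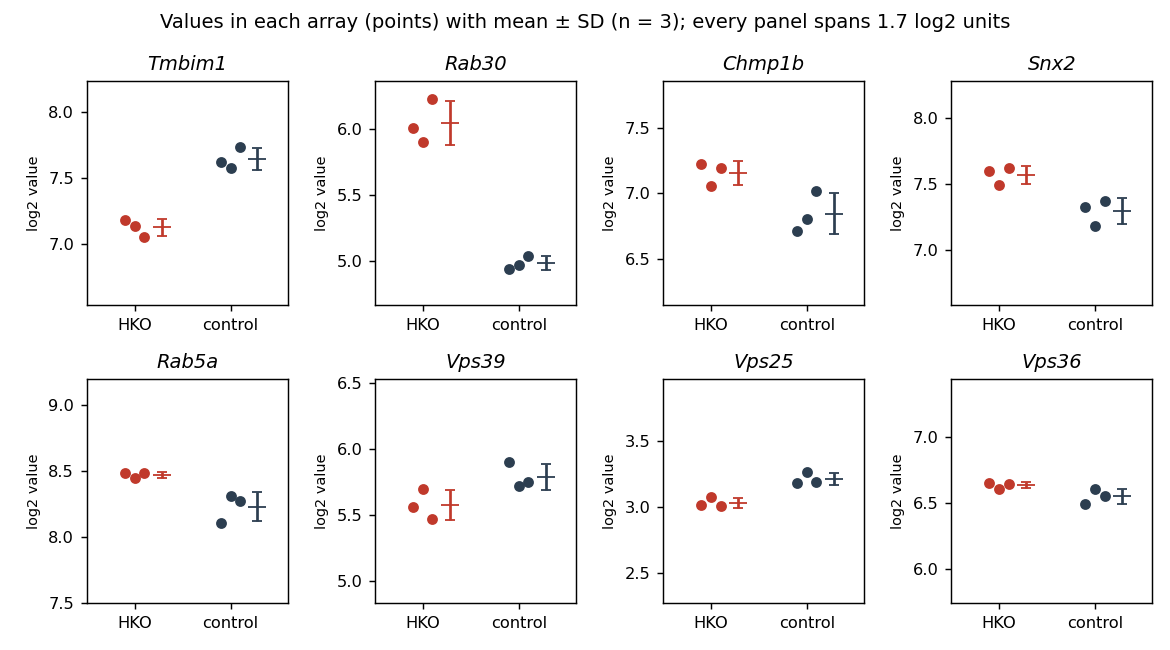
Log2 value in each array for Tmbim1 and 7 members, with HKO livers in red and control livers in dark blue. Points are single livers and the bar beside them is the mean ± SD (n = 3); every panel spans the same range of log2 units, and Rab30 has the widest gap between the genotypes, 0.86 log2 units.

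How small a difference these arrays could show was read from the intervals of the fold changes. Among the members the standard errors lay between 0.067 and 0.17 log2 units, with a median of 0.080. For 49 of the 51 the 95% interval lay inside 0.5 log2 units on either side of 0, a change of 1.41-fold, and 87% of all genes met the same limit. The members outside it were Rab30 and Chmp1b. A change beyond 1.41-fold was thus outside the interval of the other 49. Below that limit the intervals differed in width. The narrowest, of Rab5c, ran from -0.16 to 0.15, and the widest, of Rab27b, from -0.41 to 0.39.

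**Figure D2:**
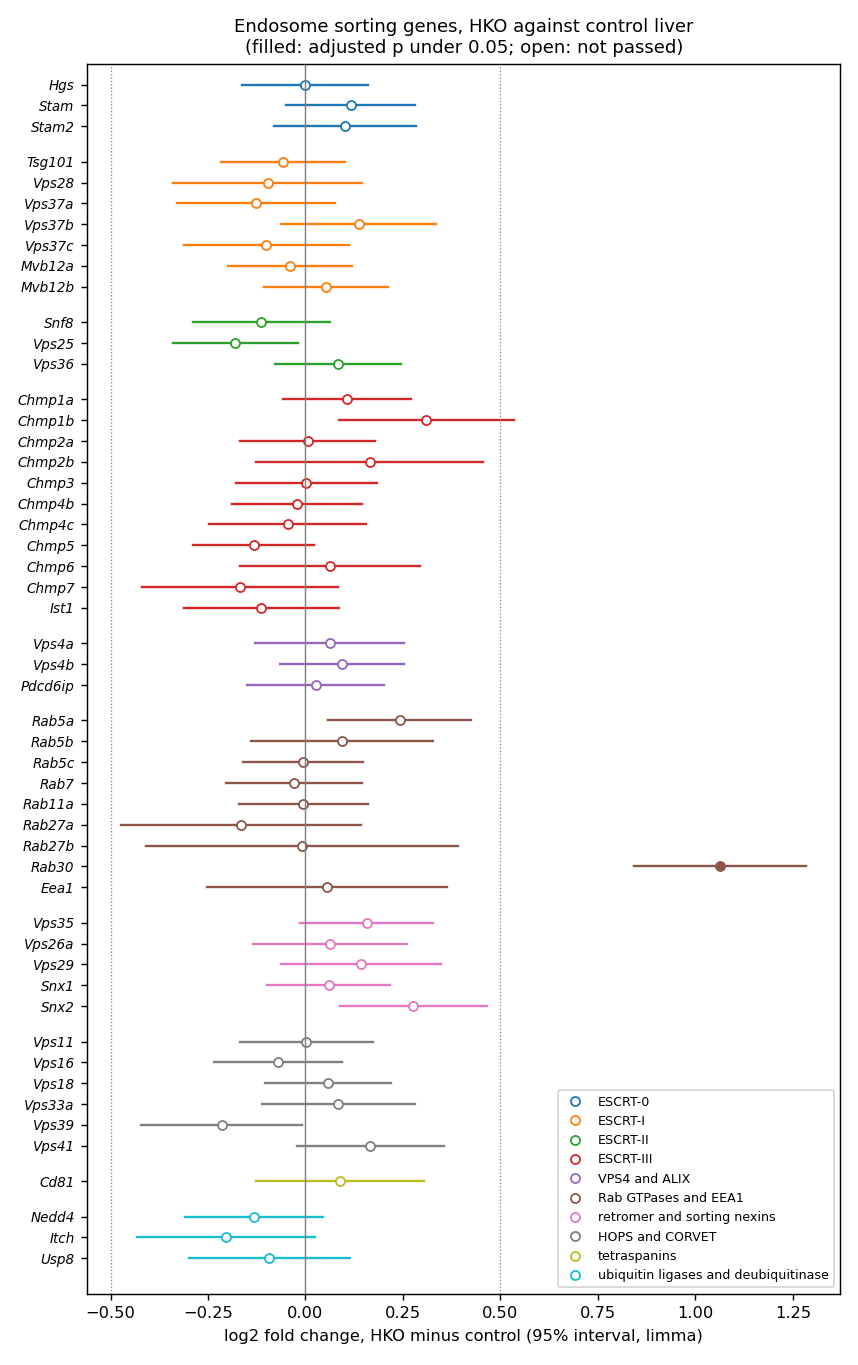
Log2 fold change (HKO minus control) of the 51 measured members with its 95% interval, by role group. Rab30, the filled point at 1.06, stands outside the dotted lines at 0.5 log2 units; the intervals of 49 genes stay inside them.

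The ESCRT-0 complex, which binds ubiquitinated cargo first, is made of Hgs and the Stam proteins. None of its 3 genes passed, and the median log2 fold change was 0.10. That median was 0.060 without control 3 and -0.019 with each gene at the median of its probe sets. Stam, an adaptor with a ubiquitin-binding and an SH3 domain, had the lowest p of the group. Its log2 values were 5.35, 5.27 and 5.39 in HKO livers, against 5.17, 5.24 and 5.25 in control livers. The HKO values lay just above the control values, by 0.025 log2 units, and the fold change of 0.12 ± 0.07 did not pass (adjusted p = 0.556). Stam2 stood at 0.10 (adjusted p = 0.653), and Hgs, the subunit that recruits ESCRT-0 to endosomal lipid, had means of 7.05 in HKO livers and 7.06 in control livers.

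ESCRT-I bridges the cargo to the later complexes. None of its 7 genes passed, 5 had negative values, and the median was -0.058 (-0.021 without control 1 and -0.034 without HKO 2). Tsg101, the ubiquitin-binding core subunit, had log2 values of 7.29, 7.21 and 7.29 in HKO livers, against 7.36, 7.30 and 7.30 in control livers. Its groups did not overlap. The same held for 14 of the 51 members (10 with HKO above, 4 with HKO below). Of all genes it held for 18.7% (8.58% with HKO above, 10.1% with HKO below). The share of members was the larger one, through those with HKO above, and the difference was not tested. Even so, the fold change of Tsg101 was -0.058 ± 0.069 (adjusted p = 0.776), with a 95% interval of -0.22 to 0.10. A change of Tsg101 transcript as large as that of Tmbim1 itself lies outside this interval. Vps37b, one of the alternative subunits that form the stalk of the complex, had the lowest p of the group. Its values were 5.50, 5.62 and 5.70 in HKO livers, against 5.57, 5.37 and 5.48 in control livers, which overlap (fold change 0.14 ± 0.09, adjusted p = 0.566). The other stalk subunits, Vps37a at -0.13 and Vps37c at -0.10, had the opposite sign, and neither passed (adjusted p = 0.603 and 0.705). A second probe set of Vps37c above the median gene stood at 0.034 ± 0.103, so no direction can be given for Vps37c. Vps28 stood at -0.097, and the accessory subunits Mvb12a and Mvb12b stood at -0.040 and 0.053.

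ESCRT-II links ESCRT-I to the filament-forming subunits. None of its 3 genes passed. Vps25, the arm subunit that contacts ESCRT-III, had log2 values of 3.02, 3.08 and 3.01 in HKO livers, against 3.18, 3.27 and 3.19 in control livers. The HKO livers were the lower ones without overlap, at an unadjusted p of 0.0331 and an adjusted p of 0.334 (fold change -0.18 ± 0.07), and these dim values belong to a probe set below the median gene (4.69). Snf8 stood at -0.11 (adjusted p = 0.591). For Vps36, the subunit that binds ubiquitin and endosomal lipid, a pair of probe sets above the median gene disagreed. The brighter stood at 0.084 ± 0.070, with 6.65, 6.61 and 6.65 in HKO livers against 6.50, 6.61 and 6.55 in control livers. The other had 6.14, 6.10 and 6.08 in HKO livers against 6.24, 6.30 and 6.28 in control livers, a fold change of -0.17 ± 0.07 (unadjusted p = 0.0463, adjusted over all probe sets 0.406). No direction can be given for Vps36.

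ESCRT-III subunits, the charged multivesicular body proteins, assemble into the filaments that cut the neck of the vesicle. None of the 11 genes passed, 6 had positive and 5 negative values, and the median was 0.0025. Chmp1b, a late subunit that helps to recruit VPS4, had log2 values of 7.23, 7.05 and 7.19 in HKO livers, against 6.72, 6.81 and 7.02 in control livers. The HKO livers were above the control livers by a gap of 0.036, and the control livers were the more widely spread. The fold change was 0.31 ± 0.10, at an unadjusted p of 0.0129 and an adjusted p of 0.238, and without 1 array it lay between 0.24 and 0.39. A second probe set of Chmp1b had the same sign at 0.18 ± 0.09 (unadjusted p = 0.0674).

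Most other ESCRT-III genes lay closer to 0. Chmp4b, the main filament subunit, stood at -0.023, and Chmp2a, a capping subunit, had means of 8.45 in HKO livers and 8.44 in control livers. Chmp5, a regulator of VPS4 recruitment, had 9.35, 9.29 and 9.35 in HKO livers, against 9.45, 9.46 and 9.47 in control livers. Its groups did not overlap, and the fold change of -0.13 ± 0.07 did not pass (adjusted p = 0.464). Chmp2b had 7.57, 7.40 and 7.91 in HKO livers, against 7.51, 7.42 and 7.45 in control livers (0.16 ± 0.13, adjusted p = 0.64). HKO 3 was the highest, HKO 1 lay just above the control livers and HKO 2 below them. A second probe set of Chmp2b had the same sign at 0.26 ± 0.14 (limma unadjusted p = 0.0969). Chmp7, which also acts in resealing the nuclear envelope, had 6.05, 5.72 and 6.10 in HKO livers, against 6.14, 6.17 and 6.05 in control livers, with HKO 2 the low one (-0.17 ± 0.11, adjusted p = 0.577).

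Of VPS4 and ALIX, which dismantle the filaments and offer a ubiquitin-independent way into the pathway, none of 3 genes passed. Vps4b had 8.90, 8.84 and 8.81 in HKO livers, against 8.78, 8.72 and 8.76 in control livers, without overlap (0.093 ± 0.069, adjusted p = 0.63). Its paralogue Vps4a stood at 0.062 and Pdcd6ip, which encodes ALIX, at 0.026. Ist1, which regulates VPS4 at the filament and was counted with ESCRT-III, stood at -0.11 (adjusted p = 0.64).

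Among the 8 Rab genes and the Rab5 tether Eea1, Rab30 rose and the other 8 genes did not pass. Rab5a, which governs fusion of early endosomes, had log2 values of 8.48, 8.44 and 8.48 in HKO livers, against 8.10, 8.31 and 8.27 in control livers. The 3 HKO livers lay close together (SD 0.023) and above all control livers, and the fold change of 0.24 ± 0.08 reached an unadjusted p of 0.0159 and an adjusted p of 0.254. Its isoforms did not share this value, Rab5b standing at 0.094 ± 0.102 and Rab5c at -0.0064 ± 0.067; the difference between the isoforms was not tested. Rab7, the Rab of late endosomes and of their fusion with lysosomes, had 9.16, 9.02 and 9.06 in HKO livers, against 9.17, 9.07 and 9.08 in control livers. Those values overlap, with a fold change of -0.030 and a 95% interval of -0.20 to 0.14. Rab11a, of recycling endosomes, had means of 8.73 in HKO livers and 8.74 in control livers. A dimmer probe set of Rab11a, still above the median gene, stood at 0.20 ± 0.12 (limma unadjusted p = 0.143). The secretory Rabs Rab27a and Rab27b, which dock multivesicular bodies and granules at the plasma membrane, were dim and imprecisely measured, with 95% intervals of -0.47 to 0.14 and -0.41 to 0.39. Rab27b was read by a probe set type that may bind related sequences.

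All genes on the array whose symbol is Rab with a number were then taken, a list chosen after the values had been seen. Of 59 such genes, Rab30 passed and 58 did not. The 51 that are not members lay between -0.30 (Rab25) and 0.37 (Rab4a), with adjusted p-values of 0.219 and 0.214. At an unadjusted p under 0.05 there were 9 of the 59, or 15.3%, against 13% of all genes.

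**Figure D3:**
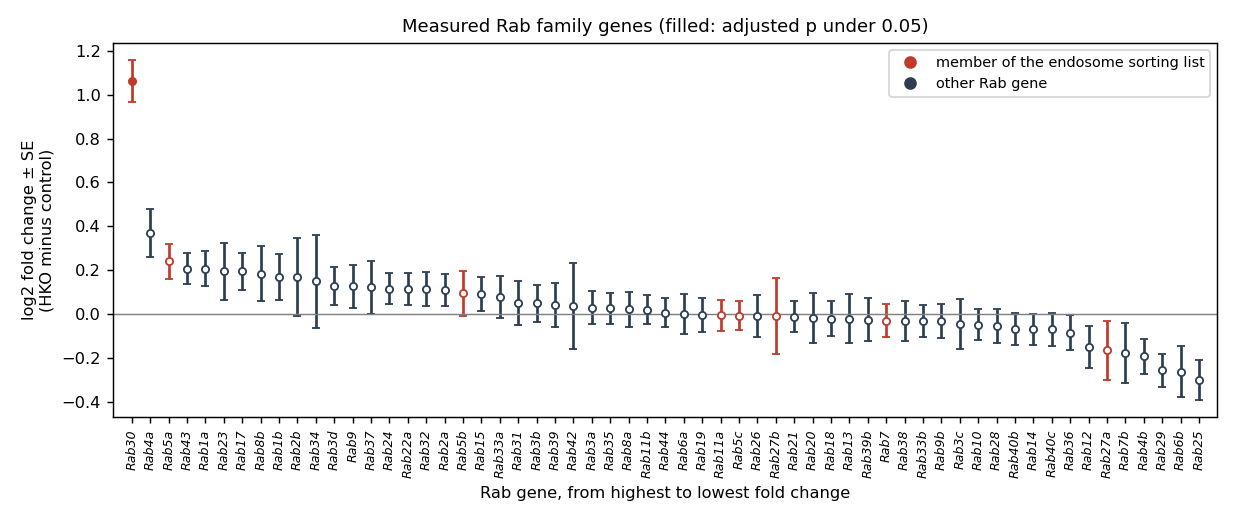
Log2 fold change (HKO minus control) ± SE of 59 measured Rab genes in order of size, with members in red, other Rab genes in dark blue and a filled point for an adjusted p under 0.05. Rab30 is at 1.06 and the next gene, Rab4a, at 0.37.

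Retromer and its sorting nexins return cargo from endosomes to the Golgi and the plasma membrane. None of these 5 genes passed, although all 5 had positive values, with a median of 0.14 against -0.0041 for all genes. Snx2, a membrane-bending nexin, had log2 values of 7.60, 7.49 and 7.62 in HKO livers, against 7.32, 7.18 and 7.38 in control livers. The groups were separate by 0.12 log2 units, with a fold change of 0.28 ± 0.08, an unadjusted p of 0.00955 and an adjusted p of 0.21. Vps35, the scaffold of the retromer trimer, had 8.89, 8.77 and 8.83 in HKO livers, against 8.61, 8.69 and 8.72 in control livers. It too was without overlap (0.16 ± 0.07, adjusted p = 0.425). Vps29 stood at 0.14 (0.561), Vps26a at 0.063 (0.807) and Snx1, the partner of Snx2, at 0.060 (0.766). The group median was 0.073 without HKO 3 and 0.063 when each gene was given the median of its probe sets.

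HOPS and CORVET tether late and early endosomes before fusion. None of 6 genes passed, and the median was 0.030 (-0.0090 without control 3). Vps39, the HOPS subunit that binds Rab7-positive membrane, had log2 values of 5.56, 5.69 and 5.47 in HKO livers, against 5.90, 5.72 and 5.75 in control livers. HKO livers were lower by a gap of 0.025, with a fold change of -0.22 ± 0.09, an unadjusted p of 0.042 and an adjusted p of 0.363. Vps41, the other HOPS-specific subunit, had the opposite sign, with 7.80, 7.75 and 7.93 in HKO livers against 7.73, 7.66 and 7.58 in control livers (0.17 ± 0.08, adjusted p = 0.447). Its further probe sets above the median gene disagreed in sign, at 0.099 and -0.10. The core subunits shared by both tethers, Vps11, Vps16, Vps18 and Vps33a, lay between -0.071 and 0.085.

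Cd81, a tetraspanin enriched in vesicles released from multivesicular bodies, had log2 values of 10.62, 10.67 and 10.89 in HKO livers, against 10.74, 10.59 and 10.59 in control livers. The groups overlapped, and the fold change was 0.087 ± 0.094 (adjusted p = 0.751). It was 0.0074 without HKO 3, the highest of the livers, and 0.14 without HKO 1 or control 1. The ubiquitin ligases Nedd4 and Itch mark membrane cargo, and the deubiquitinase Usp8 removes the mark at the endosome. All 3 had negative values, with a median of -0.13, and none passed. Itch had 7.83, 7.63 and 7.47 in HKO livers, against 7.88, 7.79 and 7.86 in control livers. HKO 1 lay among the control livers and HKO 3 well below them (-0.20 ± 0.10, adjusted p = 0.445), and without HKO 3 the fold change was -0.12. Nedd4 stood at -0.13 (0.531) and Usp8 at -0.093 (0.722).

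Seen by array, the members showed no joint shift that followed genotype. In HKO livers 36, 20 and 34 of the 51 lay above their own mean over the 6 arrays, against 28, 17 and 25 in control livers. HKO 2 and control 2 were the low arrays within their genotypes. The median deviation of the members was 0.024, -0.014 and 0.032 in HKO livers, against 0.027, -0.044 and -0.0013 in control livers, so the genotypes overlapped.

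**Figure D4:**
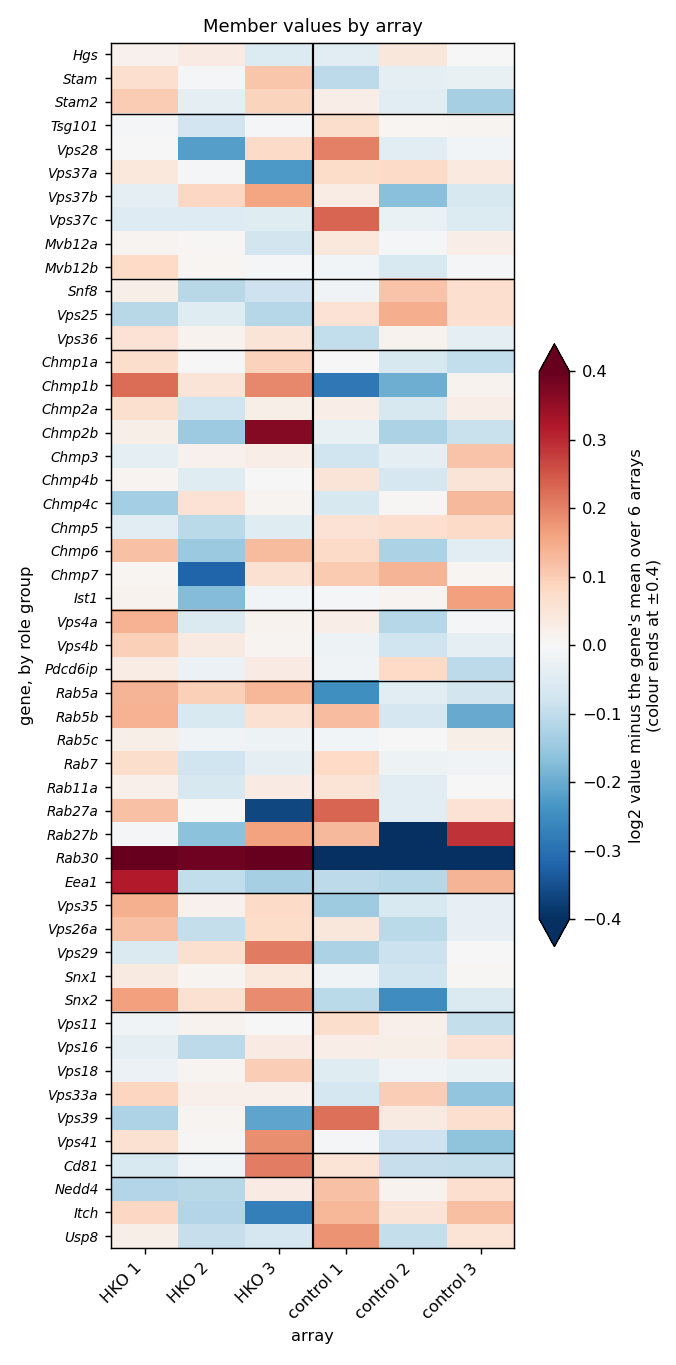
Log2 value of each member in each array minus its mean over the 6 arrays, with HKO livers left of control livers and genes in role groups between black lines. Rab30 lies above its mean in all 3 HKO livers and below it in all 3 control livers. It runs beyond the colour scale in every array but HKO 2, where it is at 0.39. Chmp2b has its strongest colour in HKO 3 (0.37) and Chmp7 in HKO 2 (-0.32).

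Members were read by 115 probe sets. Of the 51 genes, 19 had 1 probe set and 32 had from 2 to 6. Among the 64 probe sets that were not the brightest of their gene, 24 lay above the median gene, and 15 of these had the sign of the brightest one while 9 had the opposite sign. Tested each on its own, 1 of the 115 passed (Rab30), against 0.72% of all 34325 probe sets. At an unadjusted p under 0.05 there were 8 of 115, against 12% of all, 2 of them not the brightest: the one of Vps36 described above and a dim one of Vps33a at 0.34 ± 0.13. Of the 51 brightest probe sets, 6 are of the type that can match transcripts of several genes and 1, that of Rab27b, of the type that may cross-hybridise, so the values of those genes are less certain.

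**Figure D5:**
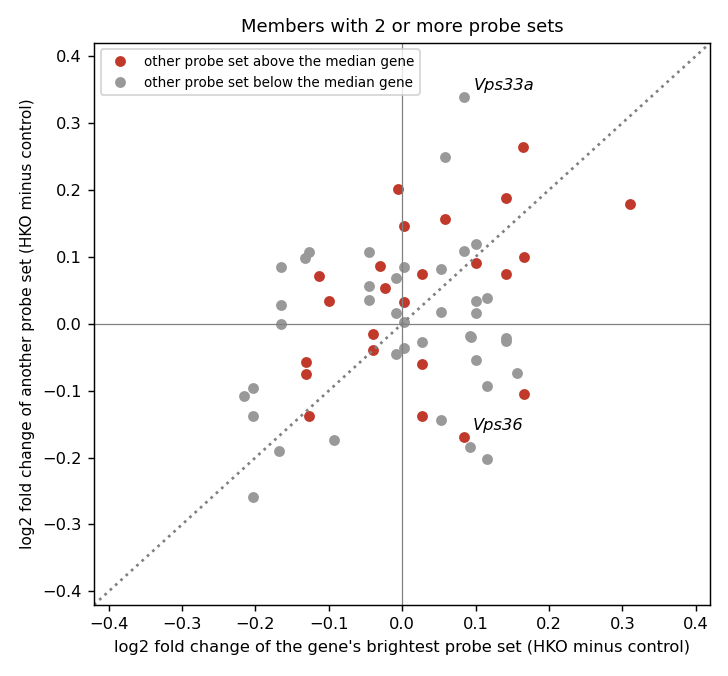
Log2 fold change (HKO minus control) of each further probe set of a member against that of the gene's brightest probe set; red points lie above the median gene and the dotted line marks equal values. The points scatter around 0 on both axes, and Vps36 is the labelled red point with opposite signs.

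A wider list of 60 other endosome genes (further ESCRT and ALIX partners, GGA adaptors, early and recycling Rabs, the lipid kinases of endosomes, other sorting nexins and sorting receptors) was set beside the members. None of the 59 measured genes passed in limma, by its standard or its trend and robust setting, and 7 reached an unadjusted p under 0.05 (2 higher and 5 lower in HKO livers), 11.9% against 13% of all genes. Sort1, which encodes the sorting receptor sortilin, had log2 values of 5.98, 6.19 and 6.20 in HKO livers, against 6.52, 6.45 and 6.57 in control livers. The groups did not overlap, and its fold change of -0.39 ± 0.09 did not pass (adjusted p = 0.0984); by the median of its 3 probe sets it was -0.023. Rab4a, a Rab of fast recycling, had 7.60, 7.28 and 7.61 in HKO livers, against 7.19, 7.19 and 7.004 in control livers (0.37 ± 0.11, adjusted p = 0.214). Pik3r4, a subunit of the endosomal lipid kinase complex of Vps34, stood at -0.23 ± 0.07 (0.256) and Vipas39, a partner of Vps33b, at -0.24 ± 0.09 (0.323).

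The tissue and its cell types were checked beside these values. Of 6 hepatocyte markers none passed, and the lowest p was that of Hnf4a at -0.28 (adjusted p = 0.37). Of these markers 3 had positive and 3 negative values. Mean log2 levels of the hepatocyte markers lay between 12.2 and 12.3 in HKO livers and at 12.3 in control livers. Of 9 macrophage markers none passed, with mean levels of 7.14 to 7.61 in HKO livers and 6.95 to 7.60 in control livers. Their log2 fold changes had a median of 0.12, with 5 positive and 4 negative values. The lowest p was that of Cd163 at -0.48, with all HKO livers below all control livers and just short of the threshold (limma adjusted p = 0.05005). None of 5 neutrophil markers (4.13 to 4.57 in HKO livers, 4.42 to 5.25 in control livers) or of 8 lymphocyte markers (3.66 to 3.81 in HKO livers, 3.70 to 4.005 in control livers) passed. The same held for 7 endothelial markers (6.24 to 6.59 in HKO livers, 6.32 to 6.48 in control livers) and 7 stellate cell and fibroblast markers (6.38 to 6.82 in HKO livers, 6.40 to 6.67 in control livers). Of 5 cholangiocyte markers none passed, while their mean levels were lower in HKO livers, 2.89 to 2.99, than in control livers, 3.17 to 3.26. These levels are dim, below the median gene (4.69). All 5 had negative values, from -0.66 for Sox9 (limma adjusted p = 0.171) to -0.048 for Epcam. The part of these cell types in the Rab30 result was not tested.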

How the data were processed

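RNA of 6 livers was measured on Affymetrix arrays, labelled from 400 ng of total RNA per the labels' protocols. The deposited values are log2 intensities that the authors computed with RMA, as the submitters' processing notes name it; its settings and version and the genome build are not given in the sources. RMA forces the arrays onto 1 distribution, which hides a change of the whole transcriptome, and shrinks differences of dim probe sets. Precision is limited by the 3 arrays per genotype.

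Of 38208 probe sets, 13 controls, 62 with several symbols and 3808 unnamed here were left out. The remaining 34325 stood for 18029 genes, each read by its brightest probe set. HKO was compared with control in limma 3.58.1 (R 4.3.3; lmFit and eBayes, two-sided) with no term beside genotype; p-values were adjusted by Benjamini-Hochberg across the 18029 genes, with 0.05 as the threshold. With 3 against 3 arrays an exact permutation test has a smallest p of 0.1. The fit was tested on simulated data.

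The rule for values in every array took Tmbim1, members at an unadjusted p under 0.05, the lowest p of each role group and members whose brighter probe sets disagree with one of them at p under 0.05; of the wider list it named genes with p under 0.01 and the 4 lowest. Tsg101, Chmp5, Chmp2b, Chmp7, Vps35, Rab7 and Vps41, also shown in full, were chosen after their values were seen. The members and lists were chosen with earlier results of these data known. Alternatives were other normalization, centring, filters, probe set rules, variance models, array weights, the replicate block and leaving out each array.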

Additional observations from a re-analysis of the deposited data

How the results depend on the processing

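Rab30 was the one member past the threshold under all 8 refits of the 6 arrays and all 6 fits without 1 array, as well as with every probe set tested on its own and at an adjusted p under 0.1. Its log2 fold change was 1.06 in each of the 8 refits, with an adjusted p between 0.000653 and 0.00775. The number of all genes past the threshold lay between 78 and 161 without 1 array and was 344 at an adjusted p under 0.1, where 1 gene of the wider list, Sort1, also passed. With each gene at the median of its probe sets, the fold changes turned to -0.082 for Stam, -0.18 for Vps4b and -0.17 for Vps36, none of them past the threshold in any setting; the alternative takes in dimmer probe sets. With the replicate block, 125 genes, 1 member and no gene of the wider list passed, and 4 members had an unadjusted p under 0.05. The deviations of same-numbered samples correlated at -0.094, 0.069 and 0.11, and 2 of 6 samples matched their own number best, so the numbers were not read as pairs. Of 423 values under alternatives 397 kept direction and side of the threshold, lay within the spread or, for counts, stayed close to the main count. A gene that had not passed was counted as kept whatever its size, as Sort1 was at -0.39 and at -0.023. The limit is 3 arrays a group: the fold change of a single member carries a standard error of 0.067 to 0.17 log2 units.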
